A study of Mus musculus with 3 samples.

Results

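Meis1, Hoxa9, Hoxa7, Hlf, Erg, Myb, Sox4, Runx1, Spi1 and Lmo4 are 10 genes for transcription factors or their cofactors that are active in blood stem and progenitor cells. They were chosen by name from the 28692 gene identifiers of a single-cell count table, and all 10 were found there and passed the filter on low counts. Their levels were read in 17 cell clusters, with the clusters called HSCP-2, Multi-Lin, Gran-1 and MDP compared directly. The names are the authors' own and are used here as given.

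The cells came from the bone marrow of wild-type C57BL/6 mice, taken from the hind limbs, enriched with magnetic beads for CD117 (the surface receptor encoded by Kit), stained with barcoded and fluorescent antibodies and sorted as a modified granulocyte-monocyte progenitor (GMP) population. One messenger RNA library was made from male and 1 from female animals with the 10x Genomics 3′ version 2 assay, which counts unique molecular identifiers (UMIs, each a captured transcript end), and antibody tags were counted in a pooled library. No animal was treated or carried an altered allele, and the sources used here do not give the number of mice in each library or their age. The female library held 4336 cells with 91448433 UMIs and the male library 6796 cells with 124967351 UMIs. Between the libraries 45 cell barcodes were shared, which concerns 90 cells. With 1 library of each sex, the p-values below set a difference only against the spread between these 2 libraries. That spread was estimated over 15 clusters fitted together and with information from other genes, not from the 2 compared clusters alone. Sex, animal and library preparation cannot be told apart. The clusters had been made from the same RNA, so a p-value is no independent evidence that 2 clusters differ.

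Blood stem cells hold a set of transcription factors that keep them able to renew and to form every lineage, and most of these are switched down as cells commit. MEIS1 binds DNA together with HOXA9 and PBX proteins, HLF is a bZIP factor used as a mark of stem cells, and ERG is an ETS factor needed to maintain them. SPI1 (PU.1), RUNX1 and MYB act later as well, in the genes of granulocytes, monocytes and proliferating progenitors, so that a list of this kind holds both genes that mark the early state and genes that serve several states.

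Hoxa9 and Hoxa7 lie side by side in the HoxA cluster on chromosome 6, with 4523 bases between their annotated ends, and Sox4 lies on chromosome 13. The 250 bases upstream of their starts are shown because these genes fell together between Multi-Lin and Gran-1, while the HoxA neighbours had different calls in the other comparisons. The windows are chr6:52227371-52227620 for Hoxa9, chr6:52218574-52218823 for Hoxa7 and chr13:28953700-28953949 for Sox4, all on the minus strand, from RefSeq on GRCm38.p6. Capitals mark matches on either strand to GAGGAA, the core of PU.1 sites, or to AACTG, the core of MYB sites.
Hoxa9: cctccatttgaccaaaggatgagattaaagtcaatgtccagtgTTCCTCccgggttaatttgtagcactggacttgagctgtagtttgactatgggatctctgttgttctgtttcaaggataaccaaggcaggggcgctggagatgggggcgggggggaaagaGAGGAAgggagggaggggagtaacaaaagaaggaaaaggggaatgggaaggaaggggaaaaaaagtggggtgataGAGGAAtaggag
Hoxa7: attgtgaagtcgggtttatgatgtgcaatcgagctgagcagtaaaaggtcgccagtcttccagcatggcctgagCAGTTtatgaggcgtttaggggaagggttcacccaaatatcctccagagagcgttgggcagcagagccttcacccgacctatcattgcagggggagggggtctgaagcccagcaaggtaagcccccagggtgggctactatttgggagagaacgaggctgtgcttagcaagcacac
Sox4: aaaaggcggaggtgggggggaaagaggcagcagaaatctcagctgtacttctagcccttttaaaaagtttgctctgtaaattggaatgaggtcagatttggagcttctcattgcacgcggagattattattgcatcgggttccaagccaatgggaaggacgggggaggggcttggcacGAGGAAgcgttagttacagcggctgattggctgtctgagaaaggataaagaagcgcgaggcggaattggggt
The Hoxa9 window held 3 matches to GAGGAA and the Sox4 window 1, and 23.3% of all 32851 promoter windows of this length held at least 1. The Hoxa7 window held 1 match to AACTG and none to GAGGAA, and 39.1% of all windows held AACTG. No match to the RUNX core TGTGGT, which 14% of all windows held, was found in these 3 windows. The MEIS core TGACAG (15.9% of all windows) was not found in them, nor was TGATTNAT, the joint motif of HOX and PBX (2.82%). The GATA core AGATAA (9.99%) was also not found. Both strands were searched. A match is a description of letters, and no binding was measured.

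Some of the genes were highest in the earliest clusters, and others peaked elsewhere. Hlf, Hoxa9, Hoxa7 and Erg had their highest mean level, in UMIs per 1000000 UMIs of a cluster (CPM), in HSCP-1 and Sox4 in HSCP-2. In these clusters the 12 stem and multipotent markers (such as Cd34, Kit and Flt3) summed to 2499 and 2215 CPM (HSCP-1) and 2061 and 2197 CPM (HSCP-2) in the female and male libraries, against 1173 and 1113 CPM in Multi-Lin. HSCP-1 held only 14 female and 10 male cells and was left out of the tests. Meis1 had 145 CPM in the female and 169 CPM in the male library in Meg, where 7 megakaryocyte markers summed to 6129 and 4171 CPM, and 124 and 154 CPM in HSCP-2. These ranges overlapped. The remaining genes had their highest mean outside HSCP-1 and HSCP-2. By mean, Spi1 was lowest in Eryth and Meg and highest in DC and Myelo-4, Myb was highest in Eryth and Gran-1, Runx1 was highest in Multi-Lin, Meg and MDP, and Lmo4 was highest in Multi-Lin and then in Myelo-4 and Myelo-3. Several of these ranks overlapped. Myb spanned 214 to 269 CPM in Gran-1 and 187 to 216 CPM in Multi-Lin, and Runx1 50.9 to 70.0 CPM in MDP and 52.1 to 58.0 CPM in HSCP-2.

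**Figure D1:**
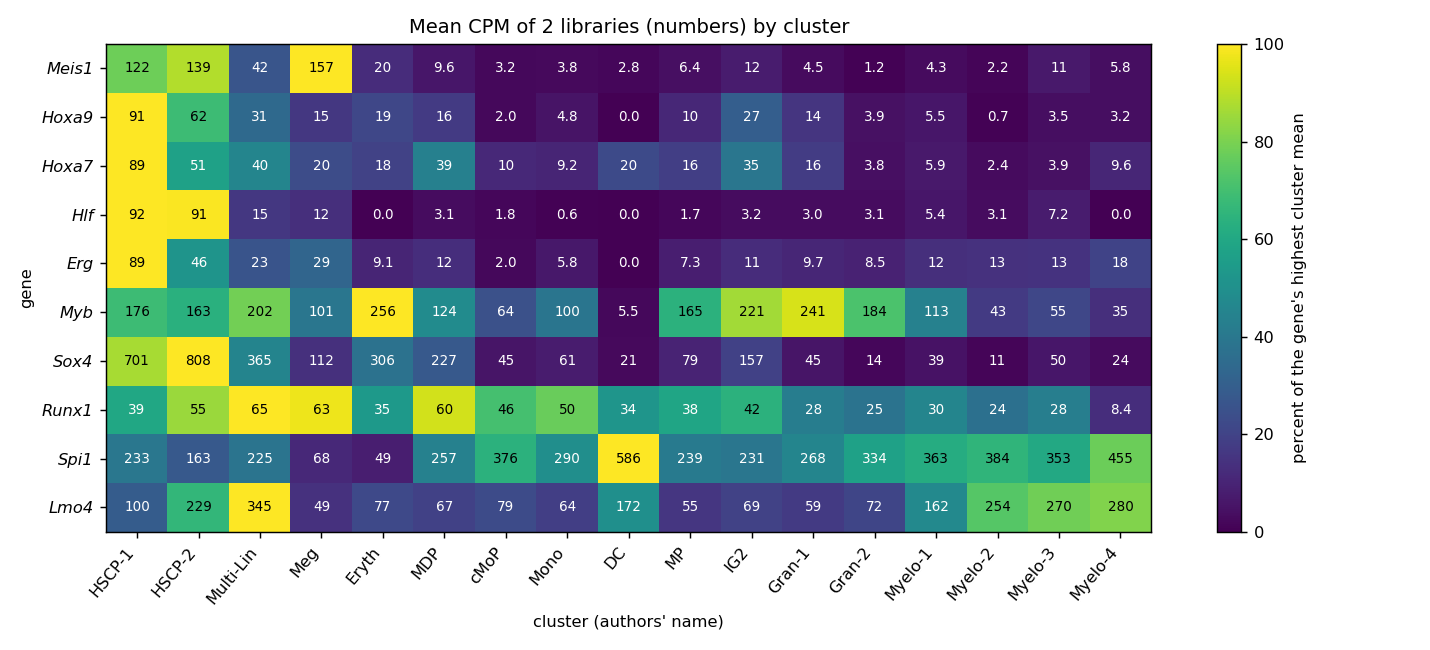
Mean CPM of the female and male libraries for each of the 10 genes (rows) in the 17 clusters (columns). The printed number is the mean CPM, and the colour gives it as a percent of that gene's highest cluster mean, so that colours cannot be compared between genes as levels. Hlf is bright in HSCP-1 and HSCP-2 alone, Spi1 is brightest at the right and in DC, and Lmo4 is bright in Multi-Lin and again in Myelo-2 to Myelo-4.

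The first comparison asked which of the genes fell between HSCP-2 (256 female and 290 male cells) and Multi-Lin (686 and 1066 cells). In the fit across 15 clusters, 5 of the 10 genes were lower in Multi-Lin and 4 were higher, and Hoxa7 did not pass. Of all 11549 genes tested, 36.6% passed in either direction, 17.9% lower and 18.7% higher. The median log2 fold change was -0.51 over the 10 genes and -0.03 over all genes tested. Scaling by library totals alone, without the TMM factors that offset differences in RNA composition, shifted the median of all genes to -0.17 and the share of higher genes among those called from 51.1% to 32.3% (39.2% with DESeq2's size factors). Under both of these scalings 5 of the 10 genes were lower and 3 higher, and Runx1 no longer passed (adjusted p = 0.104 without TMM in edgeR and 0.0702 with DESeq2).

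Hlf showed the steepest fall of the 10 genes in this step. It stood at 91.3 CPM in the female and 91.2 CPM in the male library in HSCP-2, and at 16.8 and 12.6 CPM in Multi-Lin. The groups did not overlap, and the fitted log2 fold change was -2.50 ± 0.17 (SE, adjusted p = 1.3e-16, edgeR quasi-likelihood test with Benjamini-Hochberg adjustment). Meis1, the DNA-binding partner of HOXA9, fell from 124 and 154 CPM to 41.2 and 41.9 CPM, again with no overlap. Its log2 fold change was -1.60 ± 0.12 (adjusted p = 5.58e-15, edgeR).

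Sox4, an HMG-box factor found in many immature cells, fell from 792 and 824 CPM to 335 and 395 CPM (log2 fold change -1.0 ± 0.11, adjusted p = 2.68e-10, edgeR). Hoxa9 fell from 67.0 and 57.6 CPM to 34.8 and 27.3 CPM (log2 fold change -0.86 ± 0.13, adjusted p = 2.49e-07, edgeR). Erg fell from 52.0 and 39.9 CPM to 22.2 and 24.0 CPM (log2 fold change -0.84 ± 0.14, adjusted p = 3.31e-06, edgeR). None of these 3 genes overlapped between the clusters, and how many of all genes did not overlap was not counted. Hoxa7, the neighbour of Hoxa9, had 46.1 and 55.1 CPM in HSCP-2 and 39.7 and 40.8 CPM in Multi-Lin. Its log2 fold change was -0.18 ± 0.15 (adjusted p = 0.367, edgeR), so that a fall was not shown.

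The 4 genes that rose did so by less than 1 on the log2 scale. Spi1, the ETS factor PU.1 of myeloid genes, rose from 169 and 158 CPM to 236 and 214 CPM (log2 fold change 0.61 ± 0.08, adjusted p = 2.66e-08, edgeR). Myb, a factor of proliferating progenitors, rose from 186 and 141 CPM to 216 and 187 CPM (0.46 ± 0.08, adjusted p = 3.68e-06, edgeR). Across libraries the Myb values nearly met, since the female HSCP-2 value of 186 CPM stood just under the male Multi-Lin value of 187 CPM, and within each library Multi-Lin was the higher. Runx1, which pairs with CBFB, went from 58.0 and 52.1 CPM to 67.5 and 62.3 CPM (0.38 ± 0.11, adjusted p = 0.00431, edgeR). Lmo4, a LIM-only cofactor without DNA binding of its own, rose from 240 and 219 CPM to 319 and 371 CPM (0.74 ± 0.08, adjusted p = 3.47e-10, edgeR). Its HSCP-2 level rests on few cells: 77.2% and 70.8% of the UMIs lay in 26 of 256 female and 29 of 290 male cells. In Multi-Lin 42.9% and 43.4% lay in 69 of 686 and 107 of 1066 cells.

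The Lmo4 and Runx1 increases moved with one set of cells. In Multi-Lin, 149 female and 350 male cells carried at least 10 UMIs per 10000 from the basophil, mast cell and eosinophil genes Mcpt8, Prss34, Cpa3, Prg2 and Epx, a split made without Lmo4 or Runx1. Lmo4 stood at 882 CPM in these cells and 197 CPM in the others of the female library, and at 724 and 226 CPM in the male library, so that 49.4% and 56.9% of its Multi-Lin UMIs came from 21.7% and 32.8% of the cells. Runx1 was also higher in them, at 98.6 against 60.8 CPM and 83.3 against 53.7 CPM. Hlf was lower in them, at 6.39 against 19.1 CPM and 7.97 against 14.5 CPM. Smaller differences were seen in both libraries for other genes. Myb (243 against 210 CPM and 210 against 178 CPM) and Sox4 (345 against 332 CPM and 423 against 384 CPM) were higher in these cells. Meis1 (27.9 against 44.1 CPM and 34.1 against 45.1 CPM) and Erg (17.8 against 23.2 CPM and 17.5 against 26.7 CPM) were lower. With these cells left out of every cluster, Lmo4 still passed but with a log2 fold change of 0.27 (adjusted p = 0.0172, edgeR), and Runx1 did not pass (0.26, adjusted p = 0.0756, edgeR).

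**Figure D2:**
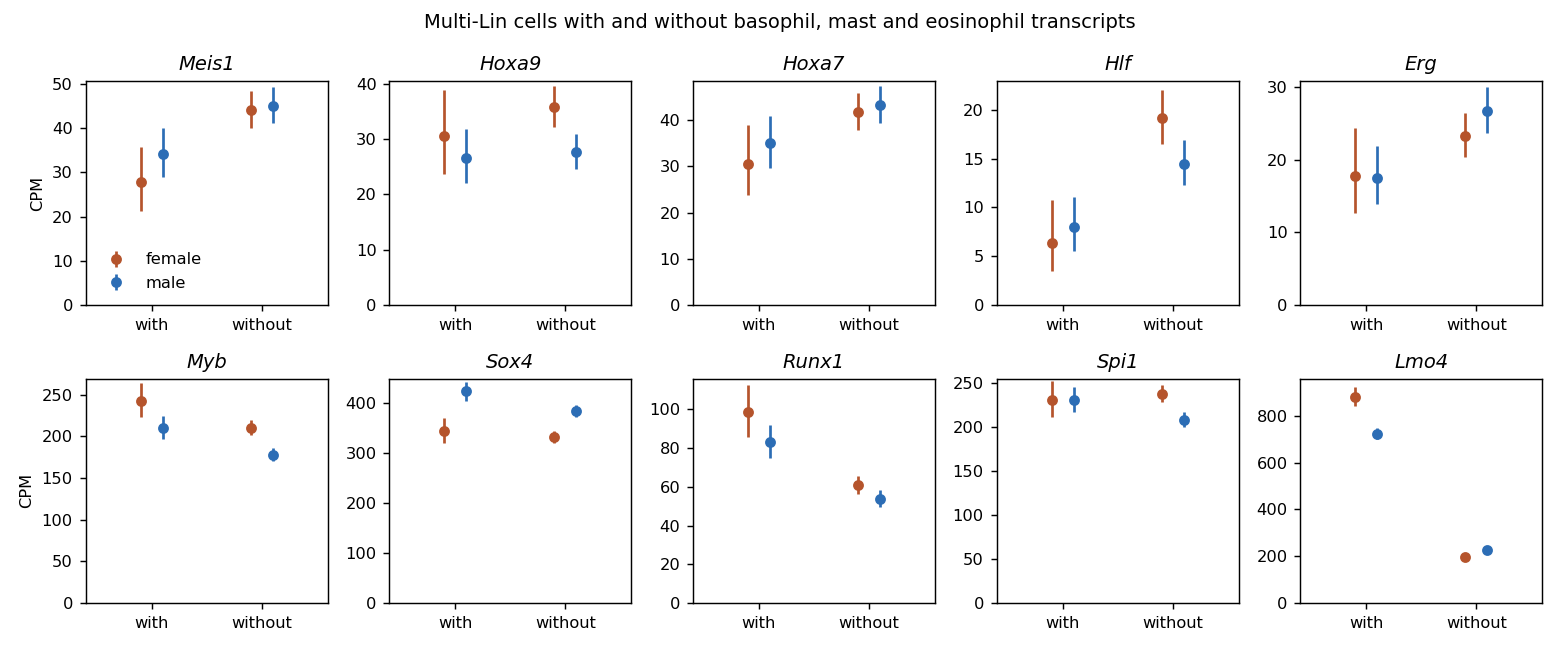
CPM of each gene in Multi-Lin cells with and without basophil, mast and eosinophil transcripts, by library, with exact Poisson 95% intervals that cover counting error only. Lmo4 is higher in the cells with these transcripts in both libraries (882 and 724 CPM against 197 and 226 CPM), and Hlf is lower (6.39 and 7.97 CPM against 19.1 and 14.5 CPM).

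The clusters also differed in depth and in the summed levels of immediate early genes and erythroid markers. The median UMI count per cell was 8298.5 and 7140.5 in HSCP-2 and 17137.5 and 13805 in Multi-Lin (female and male). The summed level of 8 immediate early genes was 4922 and 3906 CPM in HSCP-2, 2423 and 1994 CPM in Multi-Lin, 1422 and 1141 CPM in MDP and 897 and 684 CPM in Gran-1. The 8 erythroid markers summed to 1241 and 1256 CPM in HSCP-2 and 204 and 220 CPM in Multi-Lin. Their part in the results was not tested. After every cell was thinned to 4000 UMIs, the same number of genes passed in this step, 5 lower and 4 higher.

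Shares of cells with at least 1 UMI depended on depth and were compared after thinning. Meis1 was detected in 37.1% and 41.7% of thinned HSCP-2 cells, 15.5% and 14.8% of Multi-Lin cells and 1.4% and 2.1% of Gran-1 cells (62.5% and 60.7%, 45.8% and 40.8%, and 11.3% and 9.1% without thinning). Myelo-4, a cluster rich in granulocyte markers, had 3.23% and 3.57% both before and after thinning, from 1 cell of 31 and 1 of 28, at median depths of 5844 and 5057 UMIs. These few cells allow a share of up to 16.7% and 18.3%, too wide to set a background for the Gran-1 share. Myelo-2, with more cells, had 0.294% and 0.536% after thinning and 2.35% and 2.95% before it, at median depths of 13669.5 and 12673 UMIs. Hlf was found in 28.9% and 29.7% of thinned HSCP-2 cells and 5.0% and 3.9% of Multi-Lin cells (45.7% and 43.8%, and 21.0% and 15.4%, without thinning), and in none of the 31 and 28 Myelo-4 cells, which allows up to 11.2% and 12.3%. Hoxa9, Hoxa7, Erg and Sox4 also had lower thinned shares in Multi-Lin than in HSCP-2 in both libraries, which makes 6 genes, whereas without thinning 4 genes (Meis1, Hlf, Erg and Sox4) did. How many of all genes did so was not counted, so these counts only describe the listed genes. Hoxa7 went from 18.0% and 21.7% to 14.4% and 14.4% after thinning, but from 32.4% and 35.2% up to 45.0% and 41.2% without it, against 0 of 31 and 2 of 28 cells in Myelo-4 (1 of 28 after thinning).

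The second comparison asked what remained in Gran-1 (832 female and 1541 male cells), where 11 granulocyte markers summed to 41177 and 43651 CPM against 14841 and 14343 CPM in Multi-Lin. All 10 genes passed against Multi-Lin, 8 lower and 2 higher, where 55.6% of all genes tested passed, 28% lower and 27.6% higher. The median log2 fold change was -1.09 over the 10 genes and -0.01 over all genes. Without TMM the median of all genes was -0.25 and 22.3% of the called genes were higher in place of 49.7%, and the 8 and 2 genes of the list kept their directions and passed.

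Meis1 fell further, from 41.2 and 41.9 CPM to 4.24 and 4.75 CPM (log2 fold change -2.97 ± 0.14, adjusted p = 1.29e-23, edgeR). Sox4 fell from 335 and 395 CPM to 45.2 and 45.8 CPM (-2.77 ± 0.11, adjusted p = 2.29e-25, edgeR). Lmo4 fell from 319 and 371 CPM to 57.9 and 59.7 CPM (-2.32 ± 0.07, adjusted p = 9.76e-31, edgeR). Without the cells with basophil, mast and eosinophil transcripts its fall was smaller, at -1.60 (adjusted p = 6.89e-25, edgeR). With all cells in, for each of these genes the Multi-Lin values stood over 5-fold above the Gran-1 values in both libraries. Hlf fell from 16.8 and 12.6 CPM to 3.06 and 2.92 CPM (-2.04 ± 0.19, adjusted p = 7.38e-13, edgeR), and by less after thinning (-1.42). Hoxa7, Erg, Runx1 and Hoxa9 fell by less, with log2 fold changes of -1.12, -1.05, -1.01 and -0.95. Hoxa7 here fell from 39.7 and 40.8 CPM to 16.9 and 14.9 CPM (SE 0.10, adjusted p = 8.15e-13, edgeR), the first step at which it passed.

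Myb and Spi1 rose. Myb went from 216 and 187 CPM to 269 and 214 CPM (log2 fold change 0.49 ± 0.06, adjusted p = 2.17e-10, edgeR), and the male Gran-1 value lay below the female Multi-Lin value, so that the rise was seen within each library and not across them. Spi1 went from 236 and 214 CPM to 275 and 260 CPM (0.48 ± 0.06, adjusted p = 9.96e-10, edgeR), with no overlap. Past Gran-1 the genes parted. In Gran-2, Myb stood at 209 and 160 CPM and Spi1 at 339 and 330 CPM, and in Myelo-2 Myb stood at 43.1 and 43.8 CPM and Spi1 at 377 and 391 CPM.

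The third comparison took MDP (100 female and 136 male cells) against Multi-Lin. The 11 monocyte and dendritic markers summed to 1477 and 1523 CPM in MDP and to 212 and 227 CPM in Multi-Lin. Of the 10 genes 7 were lower, 1 was higher and 2 did not pass, where 19.7% of all genes passed, 9.43% lower and 10.3% higher. The medians were -0.75 over the 10 genes and -0.01 over all genes tested. Without TMM the median of all genes was -0.11 and 32% of the called genes were higher in place of 52.2%, with the same 7 lower and 1 higher among the 10 genes.

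Hoxa7 and Runx1 did not pass. Hoxa7 had 40.7 and 36.4 CPM in MDP, and its log2 fold change was 0.04 ± 0.16 (adjusted p = 0.906, edgeR). Runx1 had 70.0 and 50.9 CPM, with a log2 fold change of -0.0050 ± 0.11 (adjusted p = 0.986, edgeR). The female and male libraries disagreed in sign for both genes. Spi1 rose slightly, to 268 and 247 CPM (0.30 ± 0.07, adjusted p = 0.00199, edgeR), and this call was lost after thinning (adjusted p = 0.102) and without the library term (adjusted p = 0.0523).

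Meis1 fell to 8.54 and 10.7 CPM (log2 fold change -1.99 ± 0.25, adjusted p = 1.39e-08, edgeR), and Lmo4 fell to 73.6 and 59.7 CPM (-2.27 ± 0.10, adjusted p = 6.6e-23, edgeR). Without the cells with basophil, mast and eosinophil transcripts Lmo4 had -1.55 (adjusted p = 3.19e-16, edgeR). Hlf fell to 2.03 and 4.21 CPM, which rests on 5 and 11 UMIs (-2.09 ± 0.37, adjusted p = 2.92e-05, edgeR), and did not pass after thinning (adjusted p = 0.402). In the male library 6 of the 11 UMIs lay in a single cell. Hoxa9 fell to 15.1 and 16.1 CPM and Erg to 11.8 and 11.5 CPM, with log2 fold changes of -0.88 and -0.89 (-1.54 for Erg after thinning). Myb fell to 141 and 106 CPM (-0.61 ± 0.08, adjusted p = 5.8e-08, edgeR), the opposite direction to Gran-1. Sox4 fell to 239 and 215 CPM (-0.58 ± 0.13, adjusted p = 0.000624, edgeR), and this call was lost with DESeq2 (adjusted p = 0.344) and without the library term (adjusted p = 0.101).

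**Figure D3:**
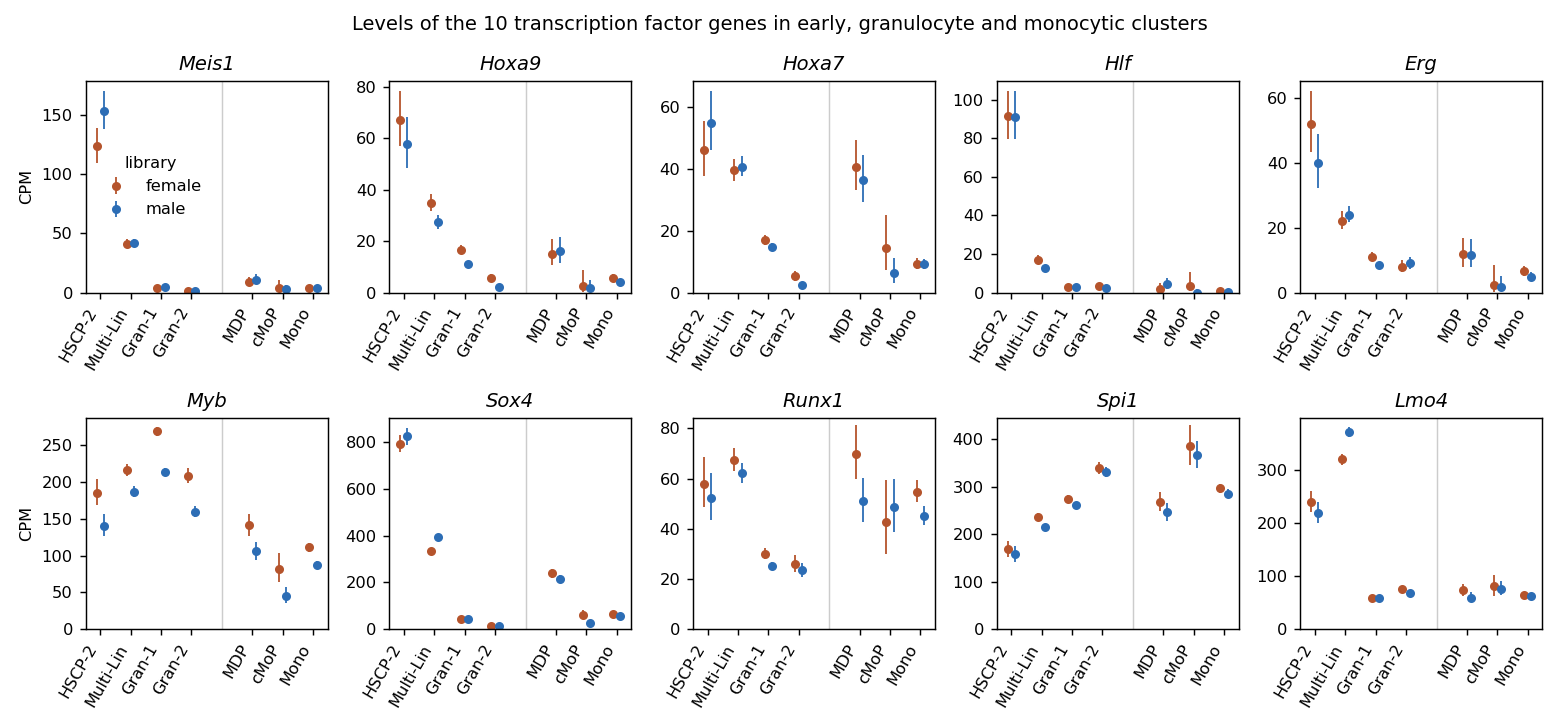
CPM of the 10 genes in the female and male libraries along HSCP-2, Multi-Lin, Gran-1 and Gran-2 (left of the line in each panel) and in MDP, cMoP and Mono (right), each panel with its own axis from 0. Bars are exact Poisson 95% intervals that cover counting error only. Meis1 and Hlf drop at Multi-Lin and again after it, Hoxa7 stands at 40.7 and 36.4 CPM in MDP and at 16.9 and 14.9 CPM in Gran-1, and Spi1 is higher in every later cluster shown than in HSCP-2.

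Gran-1 and MDP were also compared directly, since passing in one comparison and not in another does not show a difference. Of the 10 genes 4 were lower in Gran-1 (Sox4, Hoxa7, Runx1 and Meis1), 2 were higher (Myb and Spi1) and 4 did not pass. Of all genes tested 27.2% passed, 12.3% lower and 14.9% higher, and the medians were -0.11 over the 10 genes and 0.02 over all genes. Without TMM, the median of all genes was -0.11, 36% of the called genes were higher in place of 54.8% (43.7% with DESeq2's size factors), and Spi1 no longer passed.

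Sox4 differed most, at 45.2 and 45.8 CPM in Gran-1 against 239 and 215 CPM in MDP (log2 fold change -2.19 ± 0.15, adjusted p = 2.93e-17, edgeR). Hoxa7 stood at 16.9 and 14.9 CPM against 40.7 and 36.4 CPM (-1.16 ± 0.17, adjusted p = 5.26e-07, edgeR), while Hoxa9 stood at 16.7 and 11 CPM against 15.1 and 16.1 CPM and did not pass (-0.07 ± 0.20, adjusted p = 0.842, edgeR). The 2 HoxA neighbours therefore had different calls, although the difference between the genes was not tested. Runx1 stood at 30.1 and 25.1 CPM against 70.0 and 50.9 CPM (-1.0 ± 0.11, adjusted p = 3.9e-10, edgeR). Myb was higher in Gran-1 at 269 and 214 CPM against 141 and 106 CPM (1.09 ± 0.08, adjusted p = 2.27e-16, edgeR). None of Sox4, Hoxa7, Runx1 and Myb overlapped between the 2 clusters, and how many of all genes did not overlap was not counted here either.

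The remaining calls were less firm. Meis1 passed (-0.97 ± 0.34, adjusted p = 0.0285, edgeR) on 21 and 28 UMIs in MDP. It did not pass after thinning (adjusted p = 0.314), with DESeq2 (0.122), without the library term (0.0904) or without the cells of highest UMI count (0.0616). Spi1 passed by a small margin (0.19 ± 0.07, adjusted p = 0.0419, edgeR), and its call was lost under 5 of the 9 alternatives. Hlf, Erg, Hoxa9 and Lmo4 did not pass and had opposite signs in the female and male libraries.

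**Figure D4:**
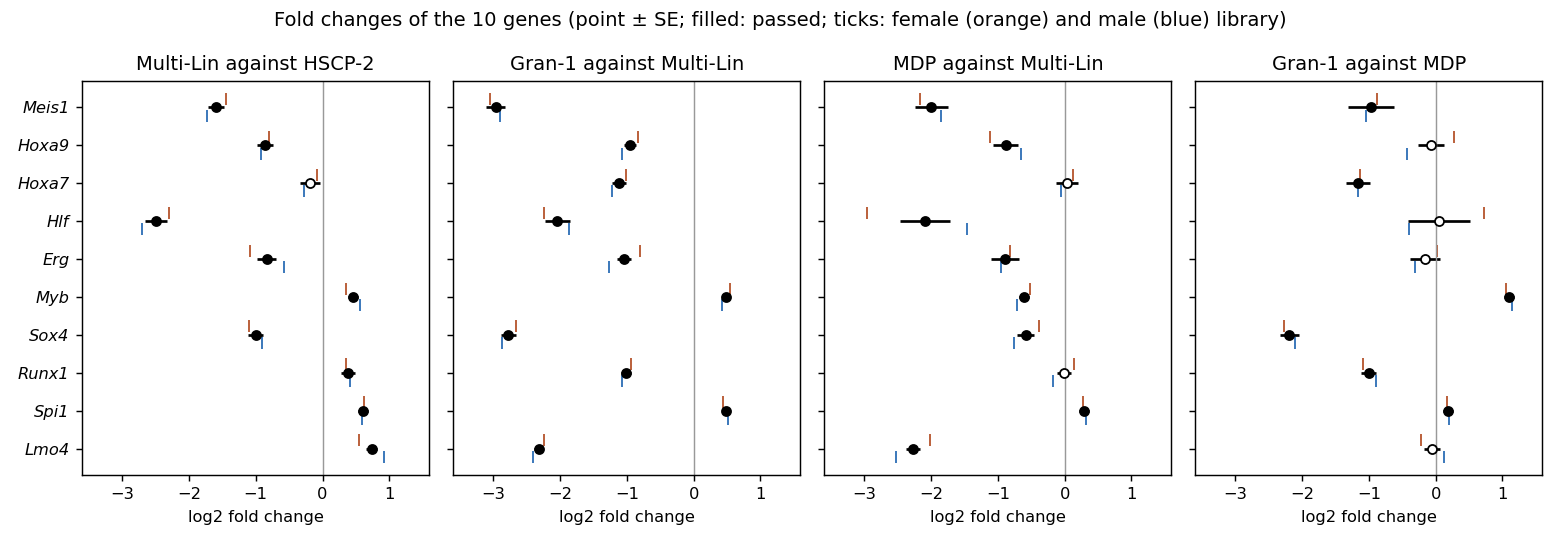
Log2 fold change of each gene in the 4 comparisons, with the fitted value and its SE as a point and bar (filled where the adjusted p was under 0.05, open where not) and the female and male within-library ratios as coloured ticks. Gran-1 against Multi-Lin has only filled points, and the open points of Gran-1 against MDP have their ticks on both sides of 0 (Hoxa9, Hlf, Erg and Lmo4).

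Persistence was given a fixed meaning: a gene was retained where its CPM was at least 50% of that in HSCP-2 in both libraries. By this rule 5 of the 10 genes were retained in Multi-Lin (Hoxa7, Myb, Runx1, Spi1 and Lmo4), 4 in MDP (Hoxa7, Myb, Runx1 and Spi1) and 2 in Gran-1 (Myb and Spi1). The share of all genes that met this rule was not counted, so these counts do not show whether the 10 genes differ from others. Gran-1 kept 145% and 152% of the HSCP-2 level of Myb and 163% and 165% of that of Spi1, against 76.1% and 75.3% and 159% and 156% in MDP. Runx1 lay on the boundary in Gran-1 at 52.0% and 48.2%, as did Hoxa9 in Multi-Lin at 52.0% and 47.4% and Erg there at 42.7% and 60.1%. These percentages use CPM without TMM factors, and the counts depend on that choice. With TMM the Hoxa9 log2 ratios of Multi-Lin to HSCP-2 were -0.81 and -0.93, which is above 50%. For Runx1 they were 0.36 and 0.41, followed by -0.94 and -1.07 from Multi-Lin to Gran-1, which also leaves Gran-1 above 50%. At the low end, Gran-1 had 3.43% and 3.09% of the HSCP-2 level of Meis1, 3.35% and 3.20% of Hlf and 5.71% and 5.56% of Sox4. Of Lmo4 it had 24.2% and 27.3%.

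Lmo4 was again higher in the Myelo clusters. It stood between 52.8 and 75.2 CPM in MP, IG2, Gran-1 and Gran-2, and then at 147 and 177 CPM in Myelo-1, 251 and 257 CPM in Myelo-2, 258 and 282 CPM in Myelo-3 and 329 and 231 CPM in Myelo-4. In Myelo-3, for one, the 11 granulocyte markers summed to 329873 and 292649 CPM. The Myelo-4 value rests on 63 and 36 UMIs in 31 and 28 cells. Erg also stood higher in Myelo-2 (12.1 and 13.2 CPM) and Myelo-3 (10.8 and 15.6 CPM) than in Gran-2 (7.98 and 9.03 CPM). No test was made of these clusters.

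Meis1 and Hlf were close to their floor in several clusters. Hlf had no UMI in the 41 female and 43 male cells of Eryth, which allows up to 5.17 and 5.88 CPM by a limit of 3 counts. In Myelo-3 the libraries differed: Meis1 stood at 3.29 CPM in the female and 18.5 CPM in the male library, Hlf at 3.53 and 10.8 CPM, and Sox4 at 24.7 and 75.7 CPM. In that cluster the 12 stem and multipotent markers summed to 564 and 672 CPM, the 8 erythroid markers to 38.1 and 95.7 CPM and the 7 megakaryocyte markers to 19.5 and 50.9 CPM. Their part in the difference was not tested. The male Meis1 UMIs were spread over 11% of 529 cells, with at most 5 in a cell.

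How many of the 10 genes a cell held was counted after thinning. The median was 3 female and 4 male in HSCP-2, 3 and 3 in Multi-Lin, and 2 in both libraries in MDP and Gran-1. Meis1 and Hoxa9 were found together in 10.9% and 7.93% of HSCP-2 cells (28 and 23 cells) and in 2.77% and 1.5% of Multi-Lin cells. In MDP no cell held both, which at 100 and 136 cells allows exact upper limits of 3.62% and 2.68%, and in Gran-1 0 of 832 and 4 of 1541 cells did. Joint shares fall where the single shares fall. By the mean of the libraries, Meis1 and Hoxa9 were found in 39.4% and 22.0% of thinned HSCP-2 cells, but in 3.94% and 4.21% of MDP cells. Hardly any joint cell could then be seen in MDP, and whether the 2 genes shared cells more than by their single shares was not tested.

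Surface CD117, read from antibody tag counts, divided some of the genes within Multi-Lin and HSCP-2. The cells of HSCP-2, Multi-Lin, Gran-1 and MDP were ranked by their CD117 count within each library and split into 3 equal parts. No test was made because cells are not replicates. In Multi-Lin, Hlf went up with CD117 from 7.12 CPM in the low part to 22.9 CPM in the high part of the female library and from 5.82 to 16.0 CPM in the male library. Meis1 went from 27.6 to 51.1 CPM and from 31.5 to 54.3 CPM, and Erg from 15.1 to 28.8 CPM and from 15.5 to 30.2 CPM. Lmo4 ran the other way, from 679 to 131 CPM and from 754 to 228 CPM. The other genes of the list differed less. Ratios of the high to the low part were 1.05 and 1.03 for Sox4, 1.04 and 1.04 for Spi1 and 1.10 and 1.20 for Hoxa7. Hoxa9 was split by library (0.945 and 1.24), and Myb (0.819 and 0.876) and Runx1 (0.640 and 0.696) were lower in the high part. In HSCP-2 Lmo4 had the same order, from 501 to 95 CPM and from 442 to 134 CPM, whereas Hlf went from 124 to 64.1 CPM in the female and from 93.2 to 87.0 CPM in the male library. Hoxa9 (ratios 0.750 and 0.700) and Sox4 (0.803 and 0.845) were also lower in the high part there, and Meis1 (1.20 and 1.25) and Erg (1.17 and 1.73) were higher. Of the HSCP-2 Lmo4 UMIs, 77.2% and 70.8% lay in 26 female and 29 male cells. In Gran-1 Lmo4 hardly differed (ratio of high to low part 1.02 and 1.03), and in MDP the libraries disagreed (1.47 and 0.917). Meis1 and Erg were higher in the high part in both libraries of Gran-1, but not of MDP. Hlf was split by library in Gran-1 and higher in the high part of MDP, on 5 and 11 UMIs. A single male MDP cell held 6 of those 11 UMIs. In the male library the megakaryocyte markers summed to 218 CPM in the high part of MDP and 1.25 CPM in the low part, and their part was not tested.

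The low CD117 part of Multi-Lin held most of the cells with basophil, mast and eosinophil transcripts, which made up 47.2% and 53.1% of it against 3.95% and 19.2% of the high part. With those cells left out before ranking, a choice made after seeing the data, Lmo4 still went from 360 to 125 CPM and from 399 to 174 CPM. Hlf then went from 10.6 to 23.9 CPM and from 9.76 to 16.4 CPM. In HSCP-2 the low part held 2 and 7 such cells, and the 7 lymphoid markers summed to 181 and 219 CPM in it against 78.4 and 83.9 CPM in the high part, which is a difference whose part in the Lmo4 order was not tested.

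**Figure D5:**
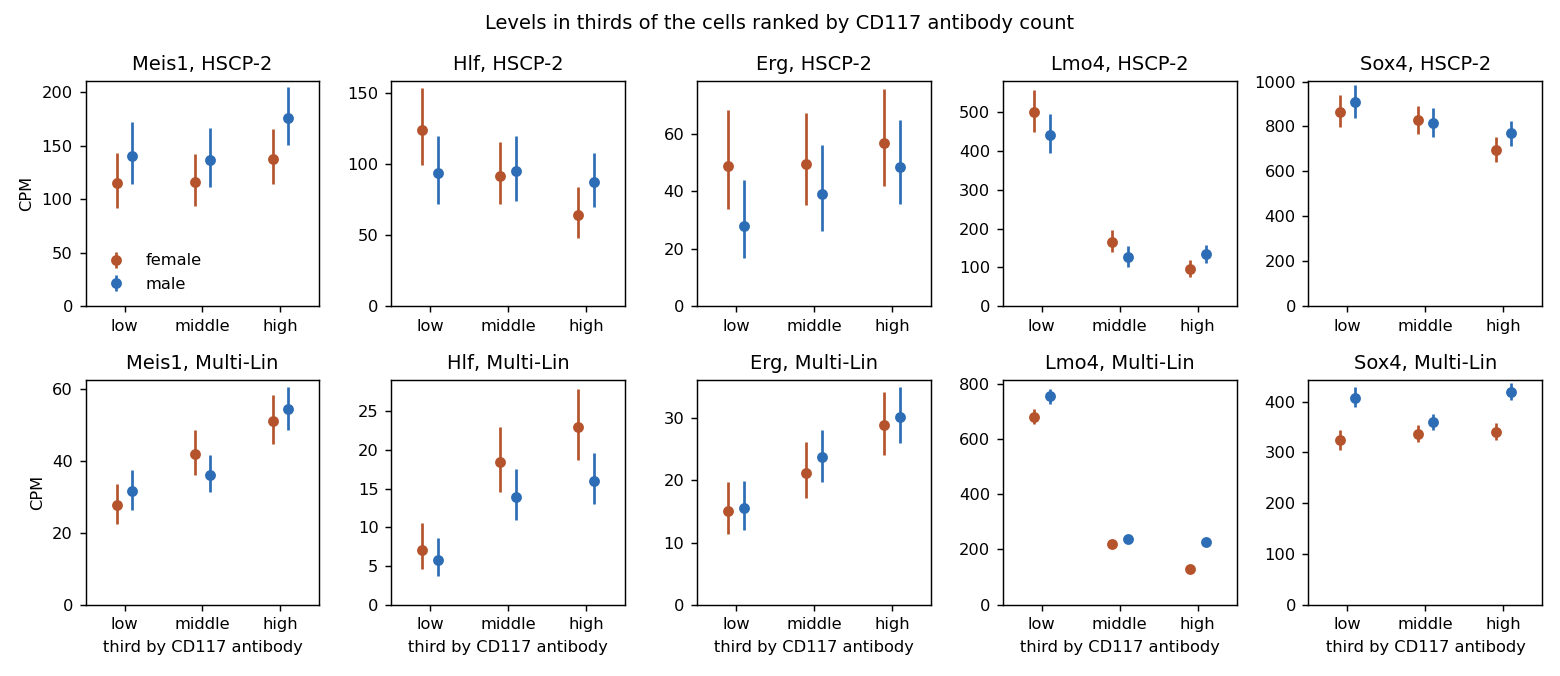
CPM of Meis1, Hlf, Erg, Lmo4 and Sox4 in HSCP-2 (top) and Multi-Lin (bottom) cells split into 3 equal parts by CD117 antibody count within each library, with exact Poisson 95% intervals that cover counting error only. Lmo4 is highest in the low part of both clusters (501 and 442 CPM, 679 and 754 CPM), and Meis1, Hlf and Erg are higher in the high part than in the low part in Multi-Lin.

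Related families were read from lists drawn up by family and by textbook role. Their counts stand against the shares of all genes tested, which were 17.9% lower and 18.7% higher in the first step, 28% and 27.6% for Gran-1 and 9.43% and 10.3% for MDP, both against Multi-Lin. Of 22 HOX and TALE genes 10 were tested: 5 were lower in Multi-Lin than in HSCP-2, 8 were lower in Gran-1 than in Multi-Lin and 3 were lower in MDP, with none higher in any of these comparisons. A gene could pass the filter on low counts through a single cluster, and a gene seen mainly in HSCP-2 can hardly be higher later. Hoxb2, for one, had 3.41 and 4.62 CPM in HSCP-2, 0.49 and 1.36 CPM in Multi-Lin and 0.042 and 0.029 CPM in Gran-1. The list counts therefore only describe the listed genes. Of 13 other stem cell regulators 10 were lower and 1 higher in the first step, 12 were lower and none higher in Gran-1, and 9 were lower and 1 higher in MDP. Etv6 and Lmo2 are among these 13 and are counted again below, with the ETS and the LIM-only genes. Bcl11a, a zinc finger repressor, fell from 138 and 114 CPM to 53.3 and 46.9 CPM in the first step (-1.19). Ikzf2, of the Ikaros family, fell from 108 and 109 CPM in Multi-Lin to 8.07 and 7.16 CPM in Gran-1 (-3.62).

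Of 12 ETS genes tested other than Spi1 and Erg, 5 were lower, 1 was higher and 6 did not pass in the first step. In Gran-1 5 were lower and 3 higher, and in MDP 1 was lower, 1 was higher and 10 did not pass. Of 5 RUNX genes and partners tested, 3 were lower and 1 higher in the first step, 3 were lower and none higher in Gran-1, and 2 were lower and none higher in MDP. Runx3 fell from 69.1 and 70.2 CPM to 46.1 and 44.0 CPM and the corepressor gene Cbfa2t3 from 109 and 122 CPM to 41.0 and 46.9 CPM between HSCP-2 and Multi-Lin (-0.49 and -1.24). Of the 8 genes of the LIM-only, SCL and GATA complex, in which Lmo4 has relatives, 6 were lower and 1 higher in the first step, 6 lower and 2 higher in Gran-1, and 4 lower and 1 higher in MDP. Gata2 there went from 115 and 121 CPM in Multi-Lin to 4.71 and 6.30 CPM in Gran-1 (-4.15). Lmo1 was higher in MDP, at 43.5 and 39.4 CPM against 16.7 and 16.2 CPM in Multi-Lin (1.44), the reverse of Lmo4. Of 6 MYB partner genes tested, 1 was lower and 1 higher in the first step. In Gran-1 3 of them were lower and 2 higher, and in MDP 1 was higher and none lower. Of 3 SOX genes tested, 1 was lower in the first step, 2 in Gran-1 and 1 in MDP, with none higher. The 3 PAR bZIP genes had the same numbers lower, and 1 was higher in MDP.

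Textbook targets of the factors were listed too, without any measure of binding. Of 7 PU.1 targets 4 were higher and none lower in the first step, 5 higher and none lower in Gran-1, and 4 higher and none lower in MDP. Csf1r, the macrophage growth factor receptor gene, stood at 8.25 and 6.52 CPM in Multi-Lin, 51.7 and 47.8 CPM in MDP and 5.48 and 5.30 CPM in Gran-1. Of the 5 MEIS1 and HOXA9 targets, 4 were lower and 1 higher in the first step and all 5 were lower in Gran-1, but in MDP 1 was lower and 2 were higher. Flt3, a receptor of early lymphoid and dendritic progenitors, went from 70.8 and 64.7 CPM in HSCP-2 to 22.5 and 15.1 CPM in Multi-Lin, and was at 37.0 and 31.0 CPM in MDP and 1.10 and 1.00 CPM in Gran-1. Of the 6 MYB targets, 4 were higher and 2 lower in the first step, 2 were higher and 4 lower in Gran-1, and 2 were higher and 1 lower in MDP. Those lower in Gran-1 included Cd34, from 291 and 261 CPM to 56.0 and 44.7 CPM (-2.23), and the survival gene Bcl2, from 86.6 and 73.4 CPM to 17 and 14.9 CPM (-2.10), both of which are also on the list for MEIS1 and HOXA9. Of 5 RUNX1 targets 3 were tested: all 3 were higher in the first step, and 2 were higher and none lower in Gran-1 and in MDP. These 3 were Csf1r, also on the PU.1 list, and Mpo and Elane, also on the MYB list, so this count is no separate result. Mpo, the myeloperoxidase gene listed for both MYB and RUNX1, rose at each step, from 1068 and 1041 CPM to 4380 and 4858 CPM and then to 8916 and 9562 CPM in Gran-1. It passed in MDP also, at 5064 and 5266 CPM (0.27).

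The genes whose pattern was most like that of each member were taken by Pearson's r of log2(CPM + 1) over the 30 cluster sums of the fit, centred within library, among 6416 genes. The sums share libraries and cells of related clusters, and r is a description here. For Meis1, Adgrg1 (r = 0.95) and Ctla2a (0.94) were among the closest. For Spi1 they were Myo1f (0.96), Ankrd44 and Dok3 (0.95 each), and for Sox4 Zfp36l2 (0.95), Csnk1e and Fam117a (0.92 each). The closest to Hoxa9 were Msi2 (0.92) and 2 of the 10 genes themselves, Hoxa7 and Sox4 (0.91 each), and the closest to Hoxa7 were Tmem176b, Peak1 (0.93 each) and Klk8 (0.92). Myb had Fam216a (0.92), Suclg1 (0.91) and Kdsr (0.90), and Runx1 had Mtch1, Raly and Calhm2 (0.93 each). Hlf (Myl10, 0.89), Erg (Ubxn6, 0.86) and Lmo4 (Ssh2, 0.84) had the least close matches. Among the 10 genes, Spi1 ran against Meis1 (r = -0.69).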

How the data were processed

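Single-cell messenger RNA counts of 1 female and 1 male library and CD117 antibody tag counts of a pooled library were used. The deposited table holds raw UMI counts per gene and cell, and the deposited antibody table holds tag counts. Cell Ranger 2.1.0 and mm10 are named in the submitters' processing notes, and the sources used here do not give the gene annotation, cell calling, doublet removal or clustering method. The authors' deposited cluster names were used as they stand, each cell's library was taken from the ending of its name, and 0 cell columns mapped to no library. No doublet caller was run. Of 28692 gene identifiers, 28339 matched a symbol and 353 did not.

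CPM are UMIs per 1000000 UMIs of a cluster and library. Cells are not replicates, so UMIs were summed per library and cluster. The 15 clusters with at least 20 cells in each library gave 30 sums, fitted together in edgeR 4.0.16 (R 4.3.3) by the quasi-likelihood test, with TMM scaling, filterByExpr, the cluster and the library as terms, 14 residual degrees of freedom and Benjamini-Hochberg adjustment over 11549 genes at 0.05. The library term pairs the clusters because both sums of a comparison come from the same library. The fit was tested on simulated data. Thinning drew 4000 UMIs per cell without replacement, and 0 cells were shallower. Intervals are exact (Poisson for CPM, Clopper-Pearson for shares, 95%) and cover counting error only. Promoter windows came from RefSeq's table for GRCm38.p6, which had an entry for 9 of the 10 genes.

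The members, the related lists and the tests were chosen with earlier results of these data known. Named genes are the 10 members, up to 3 genes per list with the largest change among those passing with a mean CPM of at least 10, and the 3 genes most alike in pattern to each member. The text prints some of them. Alternatives were no TMM, DESeq2 1.42.0, no filter, no library term, only the 4 sums compared, thinning, and leaving out the 5% of cells with most UMIs, cells with shared barcodes, cells with basophil, mast and eosinophil transcripts, or a library.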

Additional observations from a re-analysis of the deposited data

How the results depend on the processing

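The members past the threshold stayed within 1.5 times the reported number in all 4 comparisons under each of the 9 refitted alternatives, as did the genes retained in Multi-Lin, Gran-1 and MDP after thinning and without the cells of highest UMI count. The retained genes were counted from CPM without TMM factors, and TMM ratios put Hoxa9 in Multi-Lin and Runx1 in Gran-1 above the limit. Thinning lowered the number of genes past the threshold from 4229 to 2386 (Multi-Lin against HSCP-2), 6421 to 3758 (Gran-1 against Multi-Lin), 2276 to 779 (MDP against Multi-Lin) and 3137 to 1171 (Gran-1 against MDP), with fewer UMIs and 9596 genes tested.

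The replicate block is the library term, which pairs the 2 clusters of a comparison because both sums come from 1 library. With no replicate block, 3445, 4716, 1544 and 2433 genes passed in the 4 comparisons, in the order above, and 9, 10, 6 and 4 of the 10 genes. Sox4 and Spi1 (MDP against Multi-Lin) and Meis1 and Spi1 (Gran-1 against MDP) lost their calls, and it changed no other call of the 10 genes.

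Signs turned for genes that had not passed, and none of the turned values passed. For MDP against Multi-Lin, Hoxa7 was -0.066 without TMM and -0.021 without the cells with basophil, mast and eosinophil transcripts, and Runx1 was 0.19 without those cells. For Gran-1 against MDP, Hlf was -0.077 without TMM, -0.011 with DESeq2, -0.091 without the cells of highest UMI count and -0.39 after thinning, where Hoxa9 was 0.26 and Erg 0.18. The cause was not tested. A single library leaves no residual degrees of freedom, so leaving one out gives a log2 ratio with no test, and no count. In MDP against Multi-Lin these ratios were -0.052 to 0.13 for Hoxa7 and -0.18 to 0.15 for Runx1, and in Gran-1 against MDP -0.42 to 0.28 for Hoxa9, -0.40 to 0.72 for Hlf, -0.31 to 0.022 for Erg and -0.22 to 0.13 for Lmo4. All other ratios had the sign of the fit.

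In HSCP-2 the sums of Erg, Hoxa7 and Runx1 rest on 95 to 136 UMIs per library and those of Hlf and Meis1 in MDP on 5 to 28, which limits these values. The ratio of high to low CD117 part in Multi-Lin, averaged over the libraries, went from 0.247 to 0.391 for Lmo4 and from 2.99 to 1.97 for Hlf without the cells with basophil, mast and eosinophil transcripts, an alternative chosen after seeing the data.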
